A study of Mus musculus with 4 samples.

Results

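The capillaries of the brain are lined by endothelial cells that form the blood-brain barrier, and 10 genes that mark this barrier were followed here in the adult mouse cerebellum: 8 transporters (Slco1a4, Slco1c1, Slc2a1, Slc7a5, Slc16a1, Abcb1a, Abcg2 and Mfsd2a) and 2 tight junction genes (Cldn5 and Ocln). They were taken by gene symbol from a deposited table of raw read counts. All 10 were found among its 24015 genes, and all 10 passed the low-count filter that left 15117 genes for testing. The study asked what losing 1 copy of Arid1b, which encodes a DNA-binding subunit of a nucleosome-moving BAF complex, does to transcription. Its samples were cerebella of C57BL/6N mice at 140 to 150 days of age, from mice heterozygous for the Arid1b knockout and from wild type littermates, with 1 male and 1 female library per genotype. No other treatment is labelled, and the deleted part of Arid1b and the cells in which it acts are not given in the sources used here. The labels do not name single animals, so a p-value measures only the spread between these libraries.

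Barrier endothelium differs from other endothelium in that its cells are sealed to each other by tight junctions, take up little by vesicles, and move nutrients and drugs through dedicated carriers. The barrier state is kept up by Wnt ligands of the neural tissue that act through beta-catenin in the endothelial cell, and by contact with pericytes. Several of the carriers are not restricted to endothelium: monocarboxylate and amino acid carriers, for example, are also used by glia and neurons.

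The libraries held 15950899 to 20616219 counts. Over all tested genes the wild type female lay farthest from the others, with a mean root mean square distance of 0.504 in log2 CPM (read counts scaled to the library size, per 1000000), against 0.414 to 0.429 for the other 3 libraries. The fold change of each barrier gene is therefore also given without that library. Arid1b stood at 53.0 and 55.9 CPM in the male and female heterozygotes and at 69.9 and 70.9 CPM in the male and female wild types, which is -0.37 ± 0.11 (SE) as a log2 fold change and missed the threshold (edgeR quasi-likelihood test over all genes, adjusted p = 0.243). As a check of the tissue, the granule cell gene Gabra6 stood at 330 to 501 CPM and the Purkinje cell gene Calb1 at 546 to 746 CPM. The endothelial genes Pecam1 (15.3 to 25.8 CPM), Flt1 (15.9 to 41.4 CPM) and Emcn (4.27 to 11.1 CPM) were found in every library, and so were the other endothelial markers Cdh5, Tek, Tie1, Kdr and Eng.

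Per length of the gene, the glucose carrier and the tight junction gene claudin 5 were the most abundant barrier transcripts. Levels are given here as CPM per kilobase of annotated exon, as the mean ± SD over all 4 libraries. Slc2a1, the glucose carrier GLUT1, stood at 26.5 ± 4.09 and Cldn5, the main claudin that seals brain capillaries, at 26.5 ± 6.82, and their ranges overlapped. Slc7a5, the large neutral amino acid carrier, followed at 16.01 ± 0.596. Slc16a1, which carries lactate, pyruvate and ketone bodies, stood at 12.8 ± 0.802.

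The 2 members of the organic anion carrier family came next. Slco1c1, a carrier of thyroxine, stood at 11.1 ± 2.95 CPM per kilobase and Slco1a4, which carries organic anions, bile acids and thyroid hormones, at 10.2 ± 3.94. Mfsd2a, which carries lipids that contain docosahexaenoic acid and limits vesicle transport across the endothelium, stood at 7.92 ± 0.506. Over the 4 libraries Slc16a1, Slco1c1 and Slco1a4 each overlapped the gene next in this order. The lowest levels were those of the drug efflux pump Abcb1a (4.27 ± 1.26), of Ocln, the tight junction protein occludin (3.13 ± 0.349), and of the second efflux pump, Abcg2 (1.89 ± 0.417), and the ranges of Abcb1a and Ocln overlapped. The spread over the libraries differed widely between the genes, with a coefficient of variation of 3.72% for Slc7a5 and 38.7% for Slco1a4.

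Between the genotypes, 9 of the 10 barrier genes had a fitted log2 fold change below 0 in the heterozygotes, beside 48.9% of all tested genes, and their median was -0.29, beside 0.0063 over all tested genes. None passed an adjusted p of 0.05 (edgeR quasi-likelihood test, 0 lower and 0 higher, beside 0% and 0.0198% of all tested genes). At an unadjusted p under 0.05, 3 were lower (Slco1a4, Abcb1a and Cldn5), beside 6.46% of all tested genes, and 0 were higher, beside 5.22%. Limma-voom called 0 of the 10. DESeq2 gave an adjusted p to 4 of the 10 (Slco1a4, Slc2a1, Slc7a5 and Slc16a1), since its own filter on low means leaves the other 6 without one, and called 1 of them lower, Slco1a4 (adjusted p = 0.0334), beside 0.332% of the 6031 genes with an adjusted p. In 4 of the 10, both heterozygotes lay below both wild types, and in 1, Slc16a1, both lay above. Over all tested genes these shares were 22.3% and 22.4%. For Slc16a1 the margin was slight, with 57.92 CPM in the heterozygous male and 57.90 CPM in the wild type male. Past the adjusted threshold in edgeR, 6 members were lower without the wild type male, beside 7.97% of all tested genes, and 1 without the wild type female, beside 3.05%, and 0 passed without either heterozygote. The median of the barrier genes was -0.13 without the wild type female and -0.50 without the wild type male. In bulk tissue, fewer endothelial cells and less RNA per endothelial cell cannot be told apart.

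**Figure D1:**
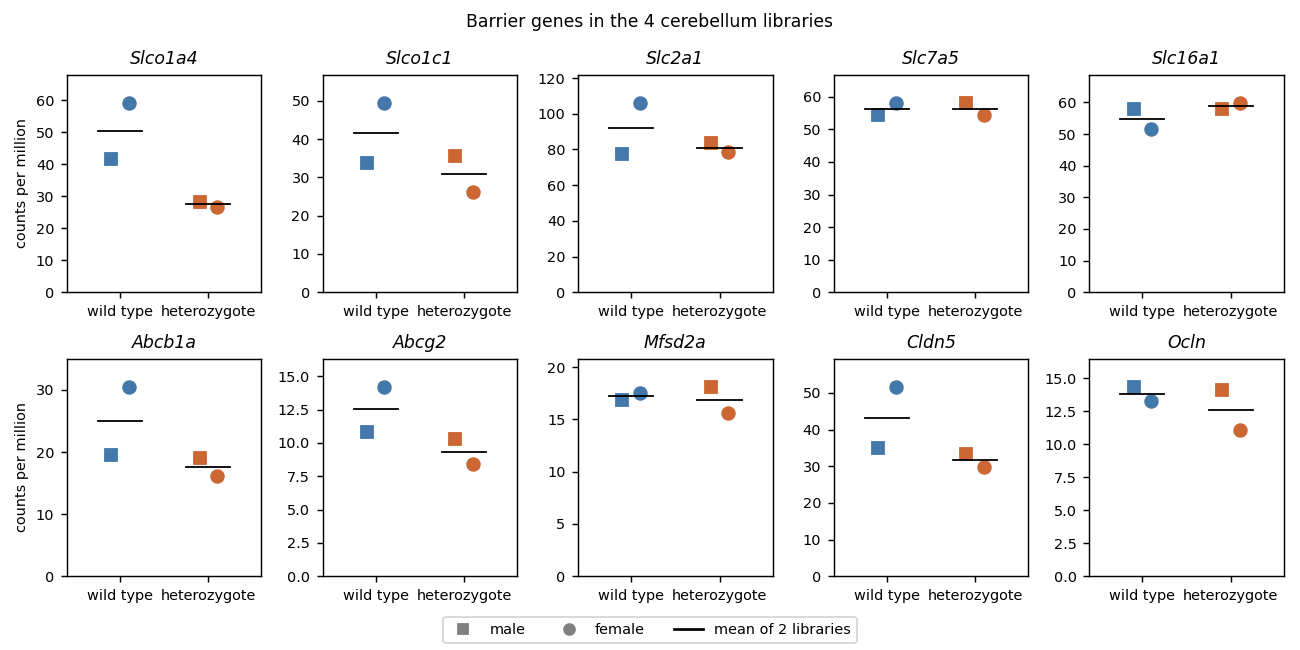
Level of each barrier gene (CPM, axis from 0) in the male (squares) and female (circles) library of each genotype, with a line at the mean of the 2 libraries. Slco1a4 is lower in both heterozygotes, at 28.2 and 26.7 CPM, than in both wild types, while for most other genes the wild type female alone stands high or the libraries lie close together.

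Slco1a4 differed most between the genotypes. It had 571 counts (28.2 CPM) in the heterozygous male and 425 (26.7 CPM) in the heterozygous female, against 683 (41.5 CPM) in the wild type male and 1220 (59.1 CPM) in the wild type female. The heterozygotes lay close to each other and below both wild types, which themselves were far apart. The mean was 27.4 ± 1.05 CPM in the heterozygotes and 50.3 ± 12.4 CPM in the wild types (SD, n = 2 each), so that the heterozygotes had 0.553 times the wild type level (log2 fold change -0.85 ± 0.16, SE). It ranked 29 by p among all tested genes, and its adjusted p was 0.136 (edgeR, quasi-likelihood). The log2 fold change was -0.60 without the wild type female and -1.11 without the wild type male, and with either library left out the gene passed the test (edgeR, adjusted p = 0.000254 and 9.95e-20), in fits where the 2 heterozygotes alone set the spread. It did not pass without the heterozygous male (edgeR, adjusted p = 0.99997, log2 fold change -0.92) or the heterozygous female (0.949, -0.85), in fits where the distant wild types set the spread. With the low-count filter removed it passed (edgeR, adjusted p = 1.9e-06), and with limma-voom it did not (adjusted p = 0.117).

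Slco1c1, its relative on chromosome 6, did not have the same pattern in the males. It stood at 35.5 CPM in the heterozygous male and 33.8 CPM in the wild type male, and at 26.3 CPM in the heterozygous female and 49.5 CPM in the wild type female. The groups overlapped, since the heterozygous male lay above the wild type male. The fitted log2 fold change was -0.42 ± 0.24 (SE, edgeR adjusted p = 0.569), and -0.13 without the wild type female. In RefSeq's gene order, 2 protein-coding genes, Slco1b2 and Gm5724, lie between Slco1c1 and Slco1a4, and Slco1b2 had 0 to 1 counts per library.

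The efflux pumps return drugs and other foreign compounds to the blood. Abcb1a, which encodes P-glycoprotein, stood at 19.0 CPM in the heterozygous male, 19.6 CPM in the wild type male, 16.2 CPM in the heterozygous female and 30.5 CPM in the wild type female. Only the last of these values stood apart, and the males differed by less than 1 CPM. Its log2 fold change was -0.48 ± 0.21 (SE, edgeR adjusted p = 0.427), -0.15 without the wild type female and -0.79 without the wild type male. Abcg2, the breast cancer resistance protein, stood at 10.3 and 10.8 CPM in the heterozygous male and wild type and at 8.42 and 14.2 CPM in the heterozygous female and wild type. Its heterozygotes lay below both wild types by a small margin in the males, with a log2 fold change of -0.41 ± 0.22 (SE, edgeR adjusted p = 0.513) and -0.21 without the wild type female.

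The tight junction genes differed from each other. Cldn5 stood at 33.4 CPM in the heterozygous male, 34.9 CPM in the wild type male, 29.9 CPM in the heterozygous female and 51.6 CPM in the wild type female. As with Abcb1a, the males were alike and the wild type female stood high. The log2 fold change of Cldn5 was -0.43 ± 0.18 (SE, edgeR adjusted p = 0.398), -0.14 without the wild type female and -0.70 without the wild type male. Ocln stood at 11.1 CPM in the heterozygous female and between 13.3 and 14.4 CPM in the other 3 libraries, with a log2 fold change of -0.14 ± 0.19 (SE, edgeR adjusted p = 0.828) that was -0.18 without the wild type female and 0.02 without the heterozygous female.

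The nutrient carriers Slc2a1 and Slc7a5 had fold changes nearer to 0 than those of the efflux pumps and Cldn5. Slc2a1 stood at 83.4 and 77.7 CPM in the heterozygous male and wild type and at 78.6 and 106 CPM in the heterozygous female and wild type, so that again the wild type female alone stood high. Its log2 fold change was -0.17 ± 0.13 (SE, edgeR adjusted p = 0.694) and turned to 0.06 without the wild type female. Slc7a5 lay between 54.4 and 58.1 CPM in all 4 libraries, with a log2 fold change of -0.0016 ± 0.12 (SE, edgeR adjusted p = 0.998), which was 0.04 without the wild type female and 0.03 without the heterozygous female. Slc3a2, the heavy chain that Slc7a5 pairs with, lay between 127 and 140 CPM.

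Mfsd2a lay between 15.6 CPM in the heterozygous female and 18.1 CPM in the heterozygous male, with overlapping groups and a log2 fold change of -0.04 ± 0.17 (SE, edgeR adjusted p = 0.961), which was -0.0046 without the wild type female and 0.06 without the heterozygous female. Slc16a1 was the 1 member with a fold change above 0. It stood at 57.9 CPM in both male libraries, at 59.8 CPM in the heterozygous female and at 51.7 CPM in the wild type female. The log2 fold change of Slc16a1 was 0.11 ± 0.12 (SE, edgeR adjusted p = 0.791), and 0.02 without the wild type female. A p-value that misses the threshold does not show that these carriers were equal between the genotypes.

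**Figure D2:**
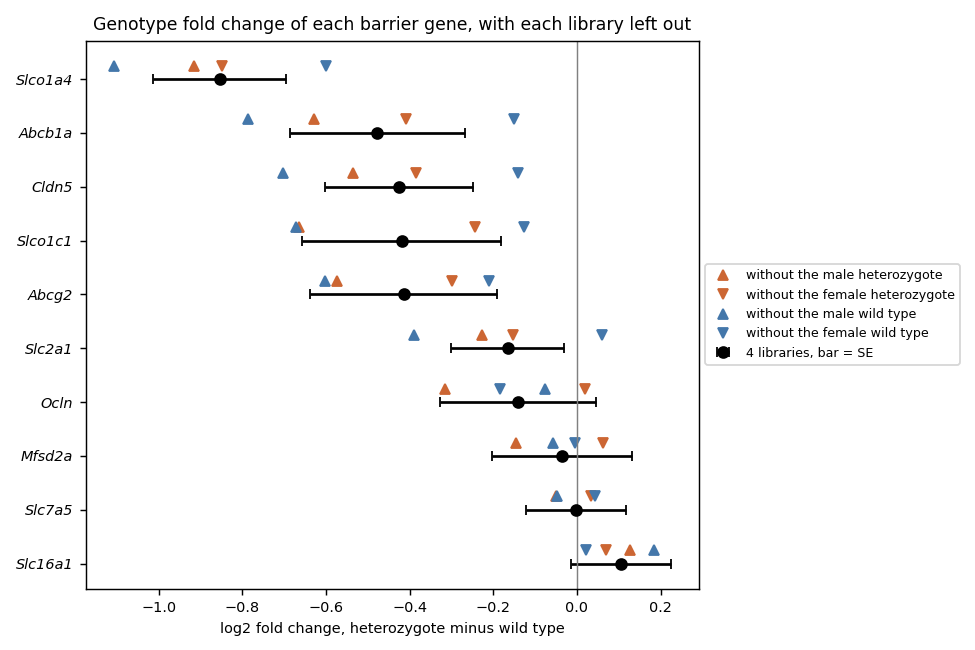
Fitted log2 fold change of each barrier gene (heterozygote minus wild type, black points with bars of 1 SE) and the same value with each library left out (triangles). Slco1a4 lies below 0 in every fit, from -1.11 to -0.60, while Slc2a1, Ocln, Mfsd2a and Slc7a5 cross 0 when 1 library is removed.

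The genotype difference was set side by side in the 2 sexes, as the log2 ratio of the heterozygote library over the wild type library of the same sex. Opposite directions in the 2 sexes were seen for 4 of the 10 members, beside 41.6% of all tested genes. Between the males, 5 of the 10 barrier genes were lower in the heterozygote, beside 49.7% of all tested genes, and the median ratio was -0.01. Between the females, 9 of the 10 were lower, beside 50.6%, and the median was -0.59. Slco1a4 was the member with a clear ratio in the males, -0.56, and it had -1.14 in the females. Slco1c1 had 0.07 in males and -0.91 in females, Abcb1a -0.04 and -0.91, Cldn5 -0.06 and -0.79, and Abcg2 -0.08 and -0.75. These ratios compare single libraries and have no test of their own.

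Whether the genotype effect differed between males and females was tested in 1 fit over all genes, and 0 of the 10 members passed (edgeR quasi-likelihood test, every member at an adjusted p of 0.998, beside 0.0198% of all tested genes called). That fit had no term for sex, so the sex difference of a gene enters the spread that its p-value rests on. At an unadjusted p under 0.05, 3 members had a difference, beside 3.55% of all tested genes: Slco1c1 at -0.98 ± 0.26 (SE), Abcb1a at -0.88 ± 0.33 and Cldn5 at -0.73 ± 0.28, female minus male on the log2 scale. The wild type female was the highest library for 7 of the 10 members, beside 29.3% of all tested genes, and the heterozygous female was the lowest for 8, beside 19.4%. Female against male, 0 members passed at an adjusted p of 0.05 (edgeR, beside 0.0595% of all tested genes) and 0 at an unadjusted p under 0.05, beside 1.75% higher and 2.08% lower in females. The sex difference ranged from -0.22 ± 0.19 (SE) for Ocln to 0.23 ± 0.16 (SE) for Slco1a4 on the log2 scale, female minus male.

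A second scale sets each barrier gene against the rest of the endothelial transcripts of the same library. The 28 tested pan-endothelial genes, none of them a member, summed to 375 CPM in the heterozygous male, 385 CPM in the wild type male, 314 CPM in the heterozygous female and 576 CPM in the wild type female. All 28 had a fitted log2 fold change below 0, beside 48.9% of all tested genes, with a median of -0.54 (-0.11 in males and -0.99 in females). The list was chosen with earlier results of these data known. With edgeR or limma-voom 0 passed the adjusted threshold. At an unadjusted p under 0.05 in edgeR 14 were lower, beside 6.46% of all tested genes. DESeq2 gave an adjusted p to 1 of the 28, and it did not pass. With no low-count filter 6 passed in edgeR, where 2.92% of all genes did. Without the wild type female 24 were lower, their median was -0.23 and 0 passed (beside 3.05% of all tested genes), while without the wild type male 21 were lower past the threshold (beside 7.97%). The smallest p-values were those of Eltd1, an adhesion receptor of endothelium, at -0.68 ± 0.23 (SE), and Ly6c1, a surface protein of brain endothelium in mice, at -0.60 ± 0.21 (SE), which were -0.46 and -0.22 without the wild type female.

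Measured this way, the female difference of several members was no longer seen. Cldn5 amounted to 8.92% of the pan-endothelial sum in the heterozygous male, 9.07% in the wild type male, 9.53% in the heterozygous female and 8.95% in the wild type female. Abcb1a likewise lay between 5.08% and 5.29% in all 4 libraries, Abcg2 between 2.46% and 2.81%, and Slco1c1 between 8.39% and 9.46%. These genes thus went with the endothelial sum over the libraries, within a narrow range.

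Slco1a4 had a lower share in the heterozygotes. It amounted to 7.51% of the sum in the heterozygous male and 8.51% in the heterozygous female, against 10.8% in the wild type male and 10.3% in the wild type female, so that the heterozygotes again lay below both wild types. The log2 ratio of these shares, heterozygote over wild type, was -0.52 in males and -0.27 in females. In the males 0 of the 28 pan-endothelial genes had a lower ratio of shares (the lowest was Robo4 at -0.45), and in the females 6 did. A ratio of shares below 0 in both sexes was also found for 13 of the 28 pan-endothelial genes. Slc16a1, Slc7a5, Mfsd2a, Ocln and Slc2a1 had higher shares in the heterozygous female than in the wild type female. Their log2 ratios of shares in the females were 1.09, 0.78, 0.71, 0.62 and 0.45, against 0.04, 0.13, 0.14, 0.01 and 0.14 in the males. Per library total, their log2 ratios in the females were 0.21, -0.09, -0.17, -0.26 and -0.43. The sum that divides each share was 314 CPM in the heterozygous female and 576 CPM in the wild type female. Summed, the 10 members came to 104% of the pan-endothelial sum in the heterozygous female and 78.4% in the wild type female. In the heterozygous and wild type males they came to 95.5% and 94.0%. The shares are descriptions with no test, since they rest on 1 library per sex and genotype.

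**Figure D3:**
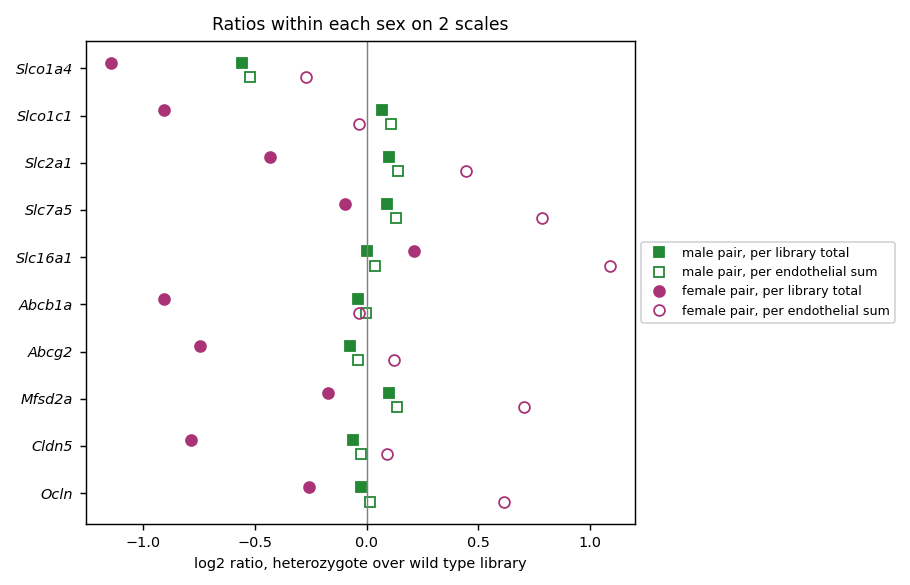
Log2 ratio of the heterozygote over the wild type library in the male pair (squares) and the female pair (circles), per library total (filled) and per pan-endothelial sum (open). Slco1a4 lies from -1.14 to -0.27 over both scales and both sexes. Cldn5 and Abcb1a are close to 0 in the males on both scales, and move close to 0 in the females once set against the endothelial sum.

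The genes that work with these carriers and junctions were taken from lists that were chosen with earlier results of these data known. None of the tested genes of these lists passed the adjusted threshold with edgeR or limma-voom. DESeq2 called none either, but gave an adjusted p to only 9 of 18 transporters, 8 of 18 junction genes, 3 of 23 Wnt genes and 1 of 8 genes of leaky endothelium. Of 18 other barrier transporters and receptors, 12 had fold changes below 0 (median -0.12 on the log2 scale, and -0.08 without the wild type female), beside 48.9% of all tested genes. Of these 18, 5 were lower at an unadjusted p under 0.05 (edgeR), beside 6.46%. The smallest p-values were those of Insr, the insulin receptor, at -0.39 ± 0.12 (SE, and -0.49 without the wild type female), and Slc40a1, the iron exporter ferroportin, at -0.68 ± 0.23 (SE). Of 18 other tight and adherens junction genes, 12 were below 0 (beside 48.9%), with a median of -0.10. At an unadjusted p under 0.05 (edgeR) 2 were lower, beside 6.46%. Esam, an endothelial adhesion molecule of the junctions, had -0.55 ± 0.18 (SE), which was -0.30 without the wild type female and -0.79 without the wild type male. Mllt4, which encodes afadin, an adaptor of adherens junctions, had -0.29 ± 0.11 (SE).

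Of 23 genes of the Wnt and beta-catenin programme that keeps up the barrier, 19 were below 0, beside 48.9% of all tested genes. Their median was -0.22 (-0.14 without the wild type female), and 3 were lower at an unadjusted p under 0.05 (edgeR), beside 6.46%. Tcf7l2, a TCF factor through which beta-catenin acts, had the fold change farthest from 0, and in the opposite direction. It stood between 40.1 and 40.7 CPM in 3 libraries and at 4.80 CPM in the wild type female, so that its log2 fold change was 1.36 ± 1.44 (SE, edgeR adjusted p = 0.841) and 0.01 without the wild type female. Without the wild type male, 8 of the 18 other transporters, 3 of the 18 other junction genes and 5 of the 23 Wnt genes were lower past the adjusted threshold in edgeR, beside 7.97% of all tested genes, and 1 Wnt gene, Tcf7l2, was higher, beside 9.53%. Without the wild type female 1, 2 and 0 were lower, beside 3.05%. Foxf2 and Foxc1, forkhead factors of the brain's vessels, had the smallest p-values of that list, at -1.02 ± 0.33 and -0.76 ± 0.29 (SE). Foxf2 was at -0.59 without the wild type female and -1.42 without the wild type male. The 8 tested genes of leaky or activated endothelium were even, with 4 higher, 4 lower and a median of 0.05 (-0.17 without the wild type male). The smallest p-values there were those of Ackr1, a chemokine receptor, and Cav1, the coat protein of caveolae. They had -0.31 ± 0.11 and -0.54 ± 0.24 (SE), and -0.14 and -0.16 without the wild type female. Ackr1 stood at 96.2 to 141 CPM, beside 15.3 to 25.8 CPM for the endothelial gene Pecam1. Which cells the Ackr1 reads came from was not tested. Plvap, the diaphragm protein of leaky vessels, lay between 29.2 and 33.2 CPM in all 4 libraries. The adhesion genes Sele and Selp were at or under 0.182 CPM.

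Cells that share these genes or border the vessels were followed by their own lists, and their part in the values above was not tested. Over all tested genes, 48.9% had a fold change below 0. The 15 pericyte and smooth muscle genes summed to 202 and 181 CPM in the male and female heterozygotes and to 193 and 264 CPM in the male and female wild types, with 12 below 0 and a median of -0.15. Atp13a5 and Abcc9 had the smallest p-values of this list, at -0.83 ± 0.21 and -0.97 ± 0.26 (SE), and were at -0.67 and -0.73 without the wild type female. Without the wild type female 8 of the 15 were below 0, with a median of -0.06 and 0 called, and without the wild type male the median was -0.44 and 7 were called lower (edgeR, beside 7.97% of all tested genes). The 16 choroid plexus genes, whose epithelium has junctions and carriers of its own, summed to 2746 CPM in the heterozygous male and to between 1487 and 1585 CPM in the other 3 libraries. Ttr alone stood at 1858 CPM in that male and at 937 to 990 CPM in the others. Of the 16, 14 were above 0 (median 0.50, and 0.06 without the heterozygous male). In 7, both heterozygotes lay above both wild types, beside 22.4% of all tested genes. At an unadjusted p under 0.05 (edgeR) 7 were higher, beside 5.22%, and 0 passed the adjusted threshold. With no low-count filter 4 passed it, where 2.92% of all genes did. The 12 meningeal genes summed to 208 and 244 CPM in the heterozygotes and 173 and 202 CPM in the wild types, and 11 were above 0 (median 0.32, and 0.13 without the heterozygous male). None of these 43 genes was at 0 counts in a library.

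Genes of glia, which use some of the carriers, went in both directions. The 10 oligodendrocyte genes were all above 0 (median 0.14, and 0.06 without the heterozygous male), and the 10 genes of astrocytes and Bergmann glia had a median of -0.09 (-0.04 without the wild type female) with 4 higher. Within that list the Bergmann glia gene Gdf10 stood at 122 CPM in the wild type female and between 71.1 and 73.1 CPM in the other 3 libraries. Hopx (163 CPM against 106 to 122) and the glutamate carrier Slc1a3 (897 CPM against 617 to 710) were also highest there. Without the wild type male these 3 genes were called lower (edgeR, beside 7.97% of all tested genes). Microglia genes had a median of 0.18, with all 9 above 0, and it was 0.37 without the wild type female and -0.16, with 7 of 9 below 0, without the heterozygous male. The 9 granule cell genes (median -0.44, and -0.36 without the wild type female) and the 9 Purkinje cell genes (median -0.32, and -0.19 without it) were all below 0. Fold changes below 0 were thus not confined to the vessels. At an unadjusted p under 0.05 (edgeR), 9 granule and 6 Purkinje genes were lower, beside 6.46% of all tested genes. In edgeR with the low-count filter and TMM, 0 of either list passed the adjusted threshold. With no low-count filter 8 granule genes and 1 Purkinje gene were called lower, where 2.92% of all genes passed. With library totals these counts were 1 and 0, where 0.086% of all genes passed. Without the wild type male the medians of the granule and Purkinje lists were -0.53 and -0.45. DESeq2 called 5 granule and 0 Purkinje genes lower, beside 0.332% of the genes with an adjusted p. Of 9 red cell genes 2 were tested, and in both of them the heterozygotes lay below the wild types, beside 22.3% of all tested genes. Alas2, which starts haem synthesis in the precursors of red cells, stood at 9.77 and 5.71 CPM in the male and female heterozygotes and at 29.2 and 11.8 CPM in the male and female wild types. Its log2 fold change was -1.33 ± 0.20 (SE, edgeR adjusted p = 0.071), -1.90 without the wild type female and -0.60 without the wild type male. In edgeR Alas2 passed with library totals, with DESeq2's size factors and with no low-count filter. With limma-voom it did not pass (adjusted p = 0.052). Slc4a1, the anion exchanger of the red cell membrane, had -1.05 ± 0.51 (SE, edgeR adjusted p = 0.459), and -0.12 without the wild type male. It stood at 0.937 and 0.942 CPM in the male and female heterozygotes and at 3.28 and 1.02 CPM in the male and female wild types, so that the females were close. The 6 globin genes of that list had 0 counts in every library. Whether their reads could be counted is not given, so this does not show that globin RNA was absent.

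**Figure D4:**
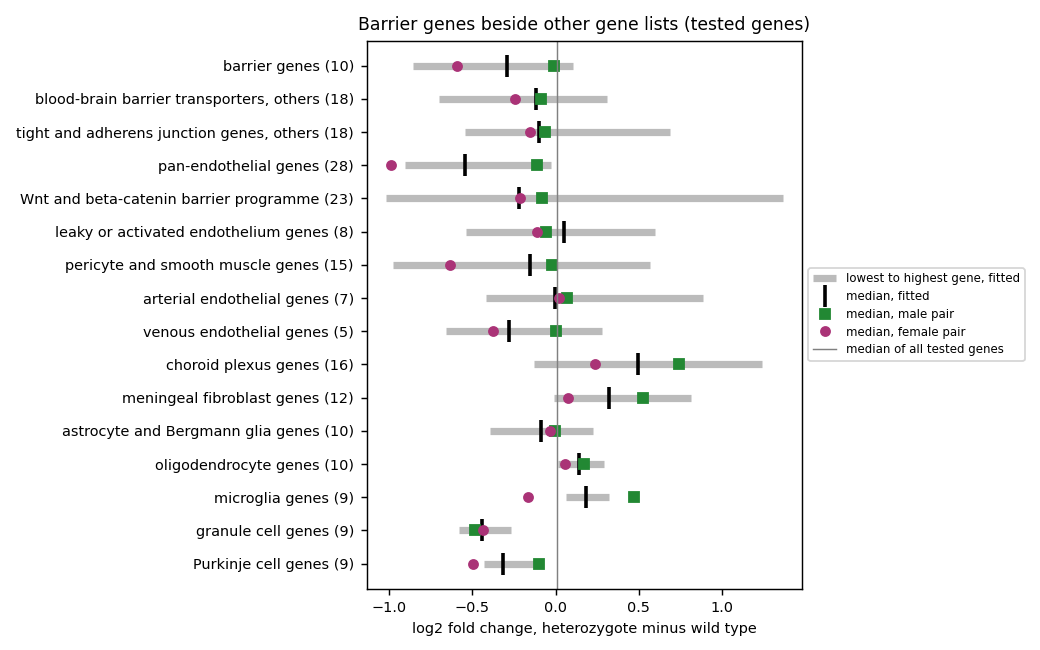
Fitted log2 fold changes (heterozygote minus wild type) of the barrier genes and of the other gene lists with at least 5 tested genes (number in brackets): range (grey bar), median (black tick) and the median log2 ratio in the male (square) and female (circle) pair. The female median lies below the male one for the barrier genes (-0.59 against -0.01) and for every other list shown except granule cell genes, among them microglia genes (-0.17 against 0.47).

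Across all 14222 other tested genes with a mean of at least 1 CPM, the 5 whose pattern over the 4 libraries lay nearest to the mean pattern of the barrier genes were 2310039H08Rik, Hjurp, Apcdd1, 9430020K01Rik and Ppp1r17. Their root mean square distance from that mean was 0.0077 to 0.023 on the centred log2 scale. The mean pattern itself was -0.05 in the heterozygous male, -0.0074 in the wild type male, -0.23 in the heterozygous female and 0.29 in the wild type female. Of the members, Abcg2 (0.08) and Slc2a1 (0.09) lay nearest to it, and Slco1a4 (0.30) and Slc16a1 (0.27) farthest. With 4 libraries such a likeness is a description of these samples.

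The region before the start of each gene was read from RefSeq's promoter sequences on build GRCm38.p6, which held 12 starts for 9 of the 10 members. The 5 sequences shown are the 250 bases before the start of Slco1a4, Abcb1a and Cldn5, the members with an unadjusted p under 0.05, of Slco1c1, the relative of Slco1a4, and of Slc16a1, which did not follow them. Each runs 5′ to 3′ on the gene's strand, and capitals mark matches on either strand to CTTTGA (the TCF/LEF core, through which beta-catenin acts), CCGGAAG (ETS factors), ATTGT (SOX factors), ACGTG (the hypoxia response core), GGGCGG (GC box), CCAAT and TATAAA. A match to ACGTG on each strand overlaps where the letters are CACGTG.
Slco1a4, chr6:141856221-141856470, minus strand: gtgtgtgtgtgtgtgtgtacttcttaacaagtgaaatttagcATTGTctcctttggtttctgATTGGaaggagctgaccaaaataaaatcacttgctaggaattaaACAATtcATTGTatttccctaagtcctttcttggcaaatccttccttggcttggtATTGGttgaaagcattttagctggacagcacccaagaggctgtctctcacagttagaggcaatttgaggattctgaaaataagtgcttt
Slco1c1, chr6:141524104-141524353, plus strand: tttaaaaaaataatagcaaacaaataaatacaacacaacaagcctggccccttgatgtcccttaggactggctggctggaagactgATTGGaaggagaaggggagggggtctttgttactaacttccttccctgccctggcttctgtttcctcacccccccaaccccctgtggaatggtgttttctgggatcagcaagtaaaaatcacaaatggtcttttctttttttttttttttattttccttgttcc
Abcb1a, chr5:8566841-8567090, plus strand: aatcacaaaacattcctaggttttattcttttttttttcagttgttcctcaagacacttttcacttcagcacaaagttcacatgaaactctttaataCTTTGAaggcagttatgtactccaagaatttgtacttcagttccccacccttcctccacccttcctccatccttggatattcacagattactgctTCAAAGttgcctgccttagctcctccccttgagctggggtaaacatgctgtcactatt
Cldn5, chr16:18776597-18776846, plus strand: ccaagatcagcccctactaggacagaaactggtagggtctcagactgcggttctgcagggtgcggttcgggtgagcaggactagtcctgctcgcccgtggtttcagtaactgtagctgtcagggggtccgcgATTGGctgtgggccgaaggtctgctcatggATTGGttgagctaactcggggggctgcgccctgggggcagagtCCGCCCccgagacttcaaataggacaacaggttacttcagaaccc
Slc16a1, chr3:104638414-104638663, plus strand: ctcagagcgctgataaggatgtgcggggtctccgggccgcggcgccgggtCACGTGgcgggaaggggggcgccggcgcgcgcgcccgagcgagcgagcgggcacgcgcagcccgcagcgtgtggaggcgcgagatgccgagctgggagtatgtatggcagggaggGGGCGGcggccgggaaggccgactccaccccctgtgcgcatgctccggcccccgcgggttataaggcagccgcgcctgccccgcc

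The carriers Slco1a4, Slco1c1 and Abcb1a had 0 CpG dinucleotides in these 250 bases and a GC content of 39.2%, 42.8% and 40.4%. Over 32841 promoter windows of the same length the median was 6 CpG and 52.4% GC. Cldn5 had 12 CpG, Slc2a1 13, Mfsd2a 17 and Slc16a1 37. Abcg2 had 3, 10 and 23 at its 3 starts, and Ocln 14 and 22 at its 2 starts.

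Of the letters searched, CTTTGA was found 2 times before Abcb1a and 1 time before Mfsd2a, and 13.8% of all windows hold it. ATTGT was found 3 times before Slco1a4 and 2 times before 1 of the 3 starts of Abcg2 (27.7% of all windows hold it). CCAAT was found 2 times each before Slco1a4 and Cldn5 and 1 time each before Slco1c1, Mfsd2a and 1 of the 2 starts of Ocln (33.9%). GGGCGG was found before Slc2a1, Slc16a1, Cldn5, both starts of Ocln and 2 of the 3 starts of Abcg2 (32.7%), and ACGTG before Slc2a1, Slc16a1 and Mfsd2a (16.6%). CCGGAAG (6.91%) and TATAAA (12.4%) were found before 0 of the 12 starts. These are matches of letters in these windows and show no binding.

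Reads that could belong to a second gene touch few of the members. Of the windows of 100 bases, the read length, in the longest annotated transcript, 7.72% of those of Abcb1a occur also in Abcb1b or Abcb4, and 1.10% of those of Slco1a4 occur in Slco1a1 or Slco1a5. The other 8 members share 0%. Abcb1b, the second P-glycoprotein gene, had 35 to 53 counts per library, against 258 to 629 for Abcb1a, and Slco1a5 had 0 to 10. On the opposite strand, Gm12868 overlaps 105 bases of the exons of Slc2a1 and Gm42686 overlaps 242 bases of those of Abcb1a, and no source used here says whether the counting took account of strand.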

How the data were processed

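Per the labels' protocols, stranded mRNA libraries of 4 cerebella shared 1 lane and gave single reads of 100 bases. The authors deposited raw counts of reads per gene symbol. The submitters' processing notes name STAR, featureCounts, FastQC, edgeR and build mm9 without settings. The treatment of multi-mapped reads and of strand is not given there.

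Genes were filtered with edgeR's filterByExpr by genotype and scaled by TMM (factors 0.999 to 1.00). Genotype was tested with edgeR 4.0.16 (R 4.3.3) by its robust quasi-likelihood method, with terms for genotype and sex, which leaves 1 residual degree of freedom, and with Benjamini-Hochberg adjustment over all tested genes at 0.05. The SE is the fold change divided by the square root of F. The difference between the sexes was tested as the product of the 2 codes, beside a genotype term and with no sex term. Ratios within a sex use a prior count of 2. A gene with 0 counts could stand at up to 0.146 to 0.188 CPM (3 counts, counting error only).

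The members and lists were chosen with earlier results of these data known. Named were all members, Arid1b, the 2 genes of smallest p per list with a mean of at least 1 CPM (given here for the lists of barrier, endothelial and pericyte genes other than arterial and venous ones) and the 5 genes nearest to the members' mean pattern. Other genes were named after their values were seen. Lengths are union exons of GENCODE M21 (GRCm38). The alternatives were DESeq2 1.42.0, limma-voom (limma 3.58.1), DESeq2's size factors, library totals, other filters, no sex term, an adjusted p of 0.1 and leaving out each library, where genotype is the only term. Scripts were tested on simulated data. Protein sequences were not used here.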

Additional observations from a re-analysis of the deposited data

Results flagged for a closer look

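For 4 of the 10 barrier genes the heterozygote lay above the wild type in the male pair and below it in the female pair, beside 41.6% of all tested genes with opposite directions. The log2 ratio in females minus that in males was -0.98 for Slco1c1, -0.53 for Slc2a1, -0.27 for Mfsd2a and -0.19 for Slc7a5. Each ratio rests on 1 library per genotype. The difference did not pass the test in any of the 4 (edgeR quasi-likelihood test, adjusted p = 0.998 each), and Slco1c1 had an unadjusted p of 0.00346.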

How the results depend on the processing

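Of the 10 barrier genes, 0 passed the genotype test, and the count stayed at 0 with library totals, DESeq2's size factors, limma-voom, a filter of 1 CPM in 2 libraries, no sex term and an adjusted p of 0.1. It was 1, Slco1a4, with DESeq2, where 6 of the 10 had no adjusted p, and with no low-count filter, and the cause was not tested. With a library left out it ranged from 0 to 6: it was 6 without the wild type male (17.5% of all tested genes then passed), 1 without the wild type female (4.3%) and 0 without either heterozygote. Over all tested genes, 3 passed; this was 33 with DESeq2, 7 with its size factors, 13 with library totals, 553 with no filter and 0 with the stricter filter or no sex term. The median of the members kept its sign in every fit, from -0.50 to -0.13. When 1 library was removed, the log2 fold change crossed 0 for Slc2a1 (-0.390 to 0.0593), Slc7a5 (-0.0497 to 0.0440), Mfsd2a (-0.145 to 0.0614), Ocln (-0.315 to 0.0186) and the amino acid carrier Slc38a5 (-1.27 to 0.0097); the other 6 members kept their direction. The counts for sex and for the difference between the sexes stayed at 0 with both other scalings and both other filters. Fits without a library have no sex term and 1 genotype with a lone library, which is assumed to vary like the others, so calls there depend on how alike the remaining pair is. Each member had at least 134 counts in every library.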

Other observations

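Carriers related to the members were also counted. Slc16a3 and Slc16a7, the other common monocarboxylate carriers, had 28 to 46 and 56 to 65 counts per library, against 952 to 1174 for Slc16a1. These are raw counts, not scaled to the length of the gene or to the library. Abcc4, another efflux pump, lay between 9.24 and 11.4 CPM in the 4 libraries.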
